A study of Mus musculus with 6 samples.

Results

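The 9 genes followed here act on modified cytosine in DNA as writers, oxidisers or excision enzymes: Tet1, Tet2, Tet3, Dnmt1, Dnmt3a, Dnmt3b, Uhrf1, Tdg and Mbd4. They were chosen by symbol from the platform annotation, and each of the 9 had 1 feature among the 23185 named genes and 25206 features of the array data. The cells were thioglycollate-elicited peritoneal macrophages, phagocytes drawn into the abdominal cavity by an irritant broth, from 3 mice labelled Tet2-/- and 3 wildtype littermates, all on the C57BL/6J background. The broth (1 mL of 4% Brewer's medium) had been injected 4 days before collection. All 6 cultures had then received 10 ng/mL LPS, a bacterial ligand of toll-like receptor 4, and 2 ng/mL IFNg, a cytokine that activates macrophages, for 10 hours, and each culture gave 1 array. Both groups therefore describe the stimulated state, and no untreated culture is among the 6 arrays. The mutated allele, the deleted part of Tet2, and the age and sex of the mice are not given in the labels used here.

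Methylation of cytosine in CpG pairs is laid down by the de novo methyltransferases Dnmt3a and Dnmt3b and copied onto new DNA strands by Dnmt1, which the hemimethyl-CpG reader Uhrf1 brings to replicated DNA. The TET enzymes Tet1, Tet2 and Tet3 are iron- and 2-oxoglutarate-dependent dioxygenases that oxidise 5-methylcytosine in steps to 5-hydroxymethylcytosine, 5-formylcytosine and 5-carboxylcytosine. Thymine DNA glycosylase, Tdg, removes the last pair of these products and T from G:T mismatches, Mbd4 excises T or U opposite G in CpG context, and base excision repair then restores cytosine. In macrophages Tet2 is known as an abundant TET enzyme and as a brake on inflammatory cytokine genes.

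The 3 TET genes differed in the CpG content of the DNA before their start sites, a feature that the choice of genes did not use. The 250 bases before each start were read from the RefSeq promoter table (build GRCm38.p6), and the sequences of Tet1 (chr10:62887325-62887574, minus strand), Tet2 (chr3:133544391-133544640, minus strand) and Tet3 (chr6:83441679-83441928, minus strand) are shown because the targeted gene stands apart from both paralogues in them. Each reads 5′ to 3′ along the strand of its gene, with CpG pairs in capitals.
Tet1: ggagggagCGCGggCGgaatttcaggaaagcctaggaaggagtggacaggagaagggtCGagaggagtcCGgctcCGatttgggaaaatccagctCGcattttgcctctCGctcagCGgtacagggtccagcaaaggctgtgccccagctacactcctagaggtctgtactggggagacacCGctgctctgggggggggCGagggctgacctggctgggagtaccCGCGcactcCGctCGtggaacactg
Tet2: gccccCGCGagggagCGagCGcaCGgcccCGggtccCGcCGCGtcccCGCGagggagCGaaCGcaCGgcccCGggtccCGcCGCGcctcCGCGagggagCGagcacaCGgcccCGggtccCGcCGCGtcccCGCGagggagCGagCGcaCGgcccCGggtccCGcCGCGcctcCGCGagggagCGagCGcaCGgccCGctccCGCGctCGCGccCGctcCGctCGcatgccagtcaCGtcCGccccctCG
Tet3: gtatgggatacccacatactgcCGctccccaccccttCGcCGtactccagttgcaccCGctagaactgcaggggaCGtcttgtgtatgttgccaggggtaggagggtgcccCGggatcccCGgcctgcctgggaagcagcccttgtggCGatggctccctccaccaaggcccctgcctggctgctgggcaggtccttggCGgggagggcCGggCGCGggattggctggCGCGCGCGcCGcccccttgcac
Tet2 had 51 CpG pairs and a GC content of 83.6%, against 15 pairs and 62.8% for Tet1 and 17 pairs and 69.6% for Tet3. A 12-base string occurred up to 5 times in the Tet2 stretch, whereas no 12-base string occurred more than 1 time in that of Tet1 or Tet3. Among 17491 protein-coding genes with such a stretch, 17 (0.0972%) had as many CpG pairs as Tet2 or more. The 9 genes had 14 such stretches, since Dnmt1 and Dnmt3a had 3 starts each and Uhrf1 had 2. Taking the stretch richest in CpG of each gene, the median was 22 pairs over the 9 genes and 11 over the protein-coding genes, and 8 of the 9, all but Tet1, had more than 16 pairs, as did 34.2% of protein-coding genes. Counts for the 8 other than Tet2 ran from 15 in Tet1 to 40 in Dnmt3a. These counts describe letters only, and methylation of these stretches was not measured.

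Values are log2 expression, so 1 unit is a 2-fold difference, and each difference is the Tet2-deficient mean less the wild-type mean, ± the standard error from limma (3 arrays a group). The samples are labelled biological replicates of 3 mice per group, and 6 arrays limit the precision of every p-value and interval. Over all 25206 features 240 (0.952%) passed an adjusted p of 0.05, 163 of them higher (0.647%) and 77 lower (0.305%) on the Tet2-deficient arrays. Higher features were 67.9% of these as deposited, 78.8% of the 273 that passed once array medians had been made equal, and 59.6% of the 292 that passed with cyclic loess. Macrophage markers lay at mean log2 levels of 5.55 to 10.7, with all 9 measured markers above the median of every array. The list's mean log2 levels were 9.08 to 9.22 on the Tet2-deficient arrays and 8.96 to 9.06 on the wild-type arrays. Of its 9 genes 2 passed the threshold, both higher on the Tet2-deficient arrays: Cd14, the LPS co-receptor (log2 change 0.97, adjusted p = 0.0152), and Itgam, the integrin chain CD11b (0.97, adjusted p = 0.0211). The list did not move as a whole: its log2 changes ran from -0.70 to 0.97 with a median of 0.0017, 5 above 0 and 4 below it. The T and NK cell markers lay at 2.13 to 3.83. The mesothelial and fibroblast list had mean log2 levels of 4.15 to 5.06 on the Tet2-deficient arrays and 3.94 to 4.34 on the wild-type arrays. In it 1 of 10 genes passed the threshold (Pdgfrb, log2 change 0.91). Its mesothelial genes changed by -0.15 to 0.10 and its fibroblast genes by 0.41 to 1.26. The list of resident peritoneal macrophage genes had 5.47 to 5.78 against 5.05 to 5.31, with 1 of 7 past the threshold (Timd4, 1.19). All 7 of its changes were above 0, with a median of 0.23, beside -0.04 over all features. With 1 array left out each of the 4 genes named here missed the threshold in some fits. The limma adjusted p then ran up to 0.0783 for Cd14, 0.0942 for Itgam, 0.146 for Pdgfrb and 0.108 for Timd4. The part of these cell types in the values below was not tested, and in bulk samples fewer cells of a type and less RNA per cell cannot be told apart.

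None of the 9 genes passed the threshold of the limma fit in either direction, beside the 0.952% of all features that did (Benjamini-Hochberg adjusted p = 0.365 to 0.840), and 0 of 9 had an unadjusted p under 0.05, which 16.0% of all features had. The sizes of their log2 changes ran from 0.06 for Mbd4 to 0.32 for Tet2, with 4 above 0 and 5 below it. Their median was -0.06, beside -0.04 over all features. The smallest absolute log2 change that passed anywhere on the array was 0.58. With all arrays as deposited the 95% intervals of all 9 spanned 0, and the widest bound that any of them allowed was a 1.61-fold difference, for Tet2 upward. A 2-fold difference in either direction thus lay outside the interval of each of the 9 features. Under alternatives the interval left 0 for Tet2 (with array weights, without Tet2-deficient replicate 2 and without wild-type replicate 1), Tet3 (without Tet2-deficient replicate 1), Tet1 (without wild-type replicate 3) and Dnmt3a (with cyclic loess), and no adjusted p of the 9 passed there. With 9 genes, a background of 0.952% gives little room for a call, so the count of 0 sets these genes apart from no other group.

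**Figure D1:**
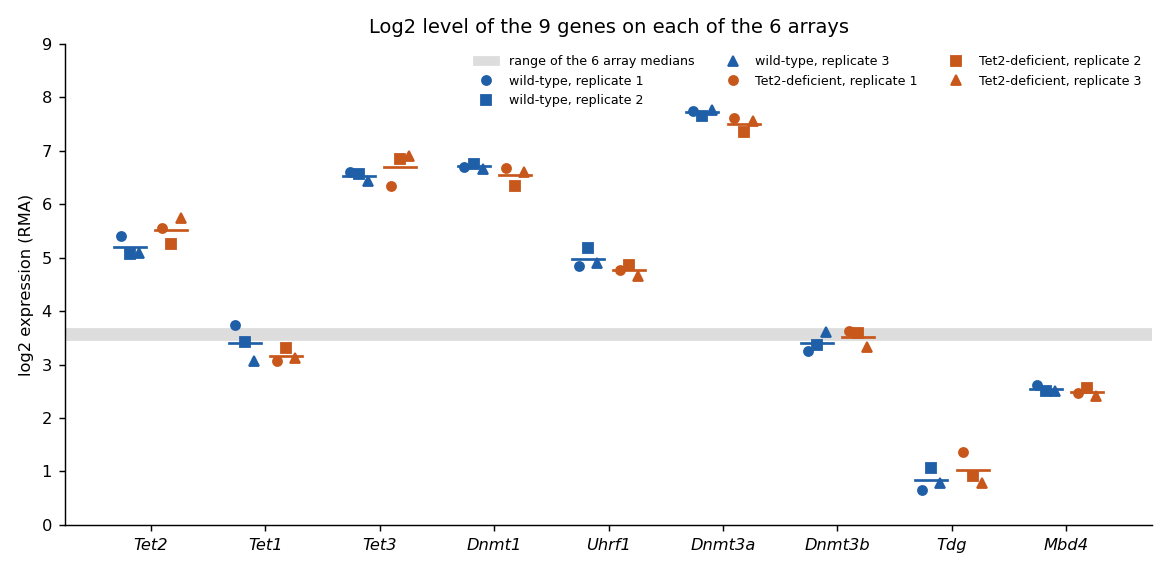
Log2 expression of the 9 genes on each array (points, 1 symbol per replicate number), with the mean of each group as a horizontal line and the range of the 6 array medians as a grey band. The groups overlap for every gene but Dnmt3a, and Tdg and Mbd4 lie below the band on all arrays.

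Tet2, the targeted gene and the first check of the labels, gave a signal in the mice labelled as lacking it that was no lower than in their littermates. Tet2-deficient replicates 1, 2 and 3 read 5.55, 5.25 and 5.75 on the log2 scale, and wild-type replicates 1, 2 and 3 read 5.40, 5.07 and 5.10. Tet2-deficient replicates 1 and 3 lay above every wild-type array, and replicate 2 lay between wild-type replicates 1 and 3. The log2 change was 0.32 ± 0.16 (adjusted p = 0.365, limma), a 1.25-fold ratio with a 95% interval from -0.04 to 0.68. The lower bound of this interval allows a fall of the Tet2 signal of at most 2.43%. This bound rests on single arrays: it was -0.18 on the log2 scale without Tet2-deficient replicate 3, where the change was 0.21, it was -0.15 without wild-type replicate 2 or 3, and it lay above 0 without Tet2-deficient replicate 2 (0.10). All 6 values lay above the array medians, which were 3.47 to 3.66, so the feature gave a signal above the median feature in both genotypes. The value is 1 summary for the gene, and where the probes behind it lie is not given in the labels or files used here. Probes that read the transcript outside the deleted part check nothing, and the genotype of each array rests on its label alone.

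The genes on either side of Tet2 on chromosome 3 were examined because an altered allele can carry linked differences. In the order of the RefSeq table, the 3 nearest measured genes before it were Ppa2, which encodes a mitochondrial pyrophosphatase, Arhgef38 and Ints12, an Integrator subunit, and the 3 after it were Cxxc4, Mir1895 and 4930539C22Rik. None of the 6 passed the threshold (limma adjusted p = 0.349 to 0.970). Cxxc4 encodes the CXXC-domain protein IDAX, which binds Tet2 protein and is thought to descend from a DNA-binding domain that Tet2 lost. Its log2 levels were 2.93, 3.18 and 2.93 on the Tet2-deficient arrays and 3.05, 3.63 and 3.39 on the wild-type arrays, all below the array medians, and the groups overlapped through wild-type replicate 1. The log2 change of Cxxc4 was -0.34 ± 0.16 (adjusted p = 0.349), with a 95% interval from -0.71 to 0.03, and it was -0.20 without wild-type replicate 2. Ints12 had groups that did not overlap (log2 change 0.19 ± 0.11, adjusted p = 0.457), a state shared by 22.0% of all features.

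The paralogues Tet1 and Tet3 also oxidise 5-methylcytosine. Tet3 had log2 levels of 6.35, 6.85 and 6.91 on the Tet2-deficient arrays and 6.60, 6.56 and 6.44 on the wild-type arrays. Tet2-deficient replicates 2 and 3 exceeded every wild-type array, while replicate 1 was the lowest of all 6. The log2 change of Tet3 was 0.17 ± 0.16 (adjusted p = 0.676), with a 95% interval from -0.20 to 0.53. Without Tet2-deficient replicate 1 it was 0.35 (adjusted p = 0.310), the highest value under any alternative, and it was 0.09 without replicate 2 and 0.07 without replicate 3 of that group.

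Tet1, best known from embryonic stem cells and the germ line, gave a dimmer signal than the median feature on 5 of the 6 arrays. Its log2 levels were 3.07, 3.32 and 3.12 on the Tet2-deficient arrays and 3.74, 3.41 and 3.07 on the wild-type arrays, so wild-type replicates 1 and 2 were the highest and replicate 3 was as low as the lowest Tet2-deficient array. The log2 change of Tet1 was -0.24 ± 0.17 (adjusted p = 0.558), with a 95% interval from -0.63 to 0.15. It was -0.07 without wild-type replicate 1 and -0.41 without wild-type replicate 3, so its size turned on single wild-type arrays. A change of a dim feature can be understated on this scale.

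Whether the TET genes differed from each other in their genotype difference was tested on differences within each array. The Tet2 value minus the Tet1 value was 2.48, 1.93 and 2.63 on the Tet2-deficient arrays and 1.67, 1.66 and 2.03 on the wild-type arrays, and the means differed by 0.56. The groups overlapped, because Tet2-deficient replicate 2 lay below wild-type replicate 3 (two-sided exact permutation p = 0.2, adjusted p = 0.333 over 5 pairs). For Tet3 minus Tet1 the means differed by 0.41 (exact permutation p = 0.2, adjusted p = 0.333), and for Tet2 minus Tet3 by 0.16 (exact permutation p = 0.6, adjusted p = 0.75). The smallest two-sided p that 3 arrays against 3 allow is 0.1, so none of the pairs could have passed 0.05. These are differences of changes and not a ranking of the genes, since signals of different features depend on their probes.

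**Figure D2:**
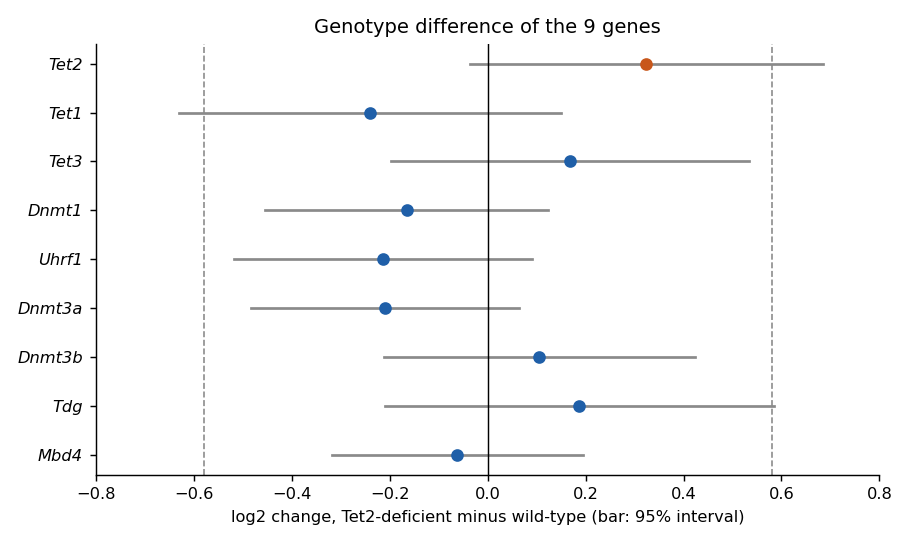
Log2 change (Tet2-deficient minus wild-type, points) of the 9 genes with the 95% interval of the limma fit (bars, n = 3 arrays per group). Dashed lines mark the smallest absolute log2 change that passed the threshold among all features, 0.58, and every interval includes 0.

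Dnmt3a, the de novo methyltransferase that, like TET2, is often mutated in clonal haematopoiesis, was the only gene of the 9 whose groups did not overlap. Its log2 levels were 7.61, 7.36 and 7.56 on the Tet2-deficient arrays and 7.75, 7.64 and 7.77 on the wild-type arrays. Every wild-type array was higher than every Tet2-deficient one, by 0.03 at the closest, between Tet2-deficient replicate 1 and wild-type replicate 2. The log2 change of Dnmt3a was -0.21 ± 0.12 (adjusted p = 0.452), a ratio of 0.865 with a 95% interval from -0.48 to 0.06. One gene of 9 without overlap stands beside the 22.0% of all features with such groups, and is no more than that background. The residual SD of Dnmt3a within groups was 0.11 on the log2 scale, against a median of 0.17 over all features.

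The other de novo enzyme, Dnmt3b, which is high in early embryos, had log2 levels of 3.63, 3.60 and 3.33 on the Tet2-deficient arrays and 3.26, 3.36 and 3.62 on the wild-type arrays, within 0.30 of the median of each array. The groups overlapped over most of their range, with the log2 change at 0.11 ± 0.14 (adjusted p = 0.772) and a 95% interval from -0.21 to 0.42. With 1 array left out the change ran from 0.03, without wild-type replicate 1, to 0.21, without wild-type replicate 3, so its size turned on single arrays. The value of Dnmt3a minus that of Dnmt3b was 3.98, 3.76 and 4.23 on the Tet2-deficient arrays and 4.49, 4.29 and 4.15 on the wild-type arrays. The means of this difference were 0.32 apart, with overlap through wild-type replicate 3 (exact permutation p = 0.2, adjusted p = 0.333 over 5 pairs).

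Dnmt1, the maintenance enzyme, had log2 levels of 6.68, 6.34 and 6.60 on the Tet2-deficient arrays and 6.70, 6.76 and 6.66 on the wild-type arrays. Tet2-deficient replicate 2 was the lowest of the 6 by 0.26, and the other 5 arrays lay within 0.16 of each other. The log2 change of Dnmt1 was -0.17 ± 0.13 (adjusted p = 0.587), with a 95% interval from -0.45 to 0.12. Without Tet2-deficient replicate 2 it was -0.06 (adjusted p = 0.840), so most of this difference came from 1 array. The same array was also the lowest of the 6 for Dnmt3a, whose change was -0.13 without it. Its mesothelial and fibroblast list had the highest mean log2 level of the 6 arrays, 5.06, against 4.46 and 4.15 on Tet2-deficient replicates 1 and 3. Most genes of that list were highest there, but Msln and Pdgfrb were not, and Krt19 was lowest there. Its B cell list had the lowest mean, 3.08, against 4.18 and 3.53 on those replicates and 3.40 to 3.82 on the wild-type arrays. For B cell genes Tet2-deficient replicate 1 thus stood apart as well, on the high side. The part of these markers in the change of Dnmt1 and Dnmt3a was not tested.

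Uhrf1 had log2 levels of 4.76, 4.87 and 4.65 on the Tet2-deficient arrays and 4.84, 5.19 and 4.90 on the wild-type arrays. The highest value was that of wild-type replicate 2, and the groups overlapped through Tet2-deficient replicate 2, which lay above wild-type replicate 1. The log2 change of Uhrf1 was -0.21 ± 0.14 (adjusted p = 0.496), with a 95% interval from -0.52 to 0.09, and it was -0.11 without wild-type replicate 2. Dnmt1 minus Uhrf1, which act together behind the replication fork, differed between the genotypes by 0.05 (exact permutation p = 0.8, adjusted p = 0.8 over 5 pairs). Uhrf1 and Dnmt1 are usually high in dividing cells, so genes of S phase and mitosis are given beside them. Of these 0 of 21 passed the threshold, beside 0.952% of all features, a share that leaves little room for a call among 21. Their median log2 change was 0.07, with 15 above 0 and 6 below it, while Dnmt1 and Uhrf1 were below 0. Their mean log2 levels as a list were 3.97 to 4.15 on the Tet2-deficient arrays and 3.97 to 4.05 on the wild-type arrays.

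The excision enzymes gave the dimmest signals of the set. The log2 levels of Tdg were 1.37, 0.91 and 0.79 on the Tet2-deficient arrays and 0.66, 1.06 and 0.79 on the wild-type arrays, below the lower quartile of features on all 6 arrays. The highest value was that of Tet2-deficient replicate 1, and the log2 change of 0.19 ± 0.18 (adjusted p = 0.665) was 0.01 without it and 0.30 without Tet2-deficient replicate 3. Mbd4 had 2.48, 2.56 and 2.40 on the Tet2-deficient arrays and 2.62, 2.50 and 2.50 on the wild-type arrays, below the median on all 6. Its log2 change was -0.06 ± 0.11 (adjusted p = 0.840), with a 95% interval from -0.32 to 0.19 and a value of -0.02 without Tet2-deficient replicate 3, and its residual SD of 0.07 was the smallest of the 9. At such levels a feature can read mostly background, and the narrow interval of Mbd4 then limits a change of signal and not one of transcript.

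**Figure D3:**
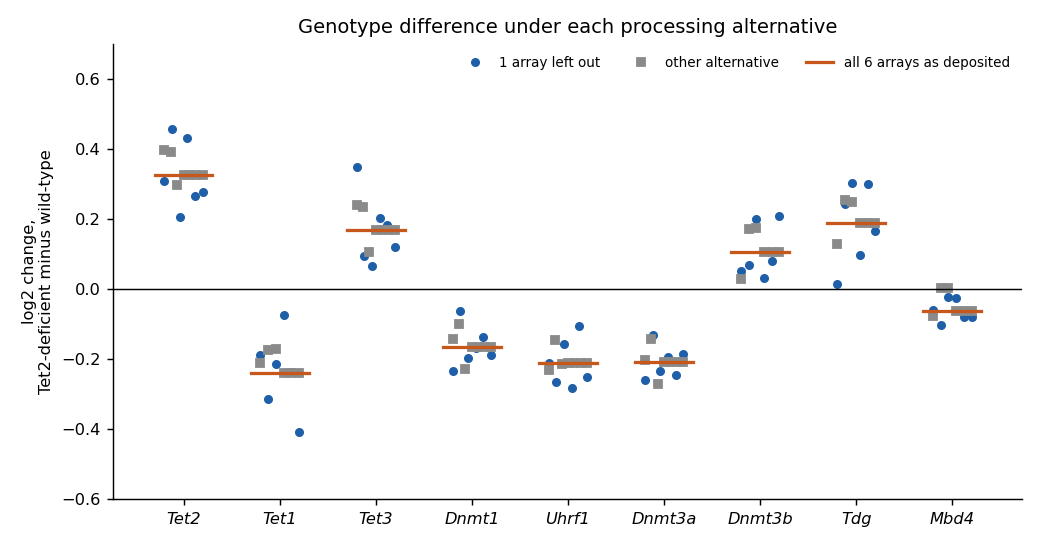
Log2 change (Tet2-deficient minus wild-type) of the 9 genes with all arrays as deposited (orange line), with 1 array left out (blue circles) and under the other alternatives (grey squares). The sign is the same throughout for 8 genes, and for Mbd4 it turns with 2 alternatives.

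By a fixed measure of likeness, the root mean square difference of mean-centred log2 values over the 6 arrays among 11764 features, the named genes nearest to Tet2 were Tbc1d24 (0.02) and Lmf2 (0.03). Tbc1d24 read 4.15, 3.87 and 4.36 on the Tet2-deficient arrays and 4.00, 3.64 and 3.70 on the wild-type arrays. It repeats the order of Tet2 within the Tet2-deficient group, which follows from its choice by likeness. Nearest to Tet3 were Garnl3 and Zyx, nearest to Tet1 were Rpl37a and Ly6g6c, nearest to Uhrf1 were Fam117a and Cfap65, and nearest to Tdg were Btbd6 and Mon1a, with differences of 0.03 to 0.06. None of these 10 passed the threshold, which is likely for genes chosen by likeness to genes that did not pass. Among so many features and 6 arrays close neighbours occur for many patterns, and the remaining 4 genes varied by under 0.5 over the arrays and were not matched.

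The wider machinery around the 9 genes was described with 7 lists of 110 distinct genes, of which 101 were measured. None of the 101 passed the threshold, against 0.952% of all features. At an unadjusted p under 0.05 there were 14 (13.9%, beside 16.0% of all features), and 20 (19.8%) had groups that did not overlap, beside 22.0%. The median log2 change over the 101 was 0.03. Shares this close to the background say nothing particular about the lists.

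Among partners and regulators of TET proteins 0 of 19 passed, with a median log2 change of 0.10. The smallest p belonged to a pair of genes of 1 ubiquitin ligase, CRL4, whose substrate receptor Dcaf1 and adaptor Ddb1 act in the monoubiquitylation of TET proteins. Dcaf1 had log2 levels of 5.98, 5.84 and 5.76 on the Tet2-deficient arrays and 5.51, 5.24 and 4.93 on the wild-type arrays, with no overlap (log2 change 0.63 ± 0.16, adjusted p = 0.0999). Ddb1 had 7.97, 7.98 and 7.78 against 7.44, 7.48 and 7.44, again with no overlap (0.46 ± 0.12, adjusted p = 0.0999). With features above the median level only, Dcaf1 (adjusted p = 0.0456) and Ddb1 (adjusted p = 0.0423) passed in the limma fit, and Ddb1 also passed with a trended and robust prior (adjusted p = 0.0319). The cullins of this ligase had smaller changes and overlapping groups: Cul4a 0.10 ± 0.12 (limma adjusted p = 0.744) and Cul4b 0.13 ± 0.15 (adjusted p = 0.737). The ligase genes of the list were thus not all higher to a like degree. Hdac2, a histone deacetylase reported to be recruited by Tet2, had a log2 change of 0.05 ± 0.12 (adjusted p = 0.897). Nfkbiz, an atypical IkB protein reported to bring Tet2 to its targets, had 0.48 ± 0.14 (adjusted p = 0.129), with no overlap between groups.

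Of the genes listed under methylation maintenance and methyltransferase cofactors 0 of 14 passed, with a median of 0.04. Hdac1 had a log2 change of 0.63 ± 0.21 (limma adjusted p = 0.179) with overlapping groups, and Dppa3, which shields methylation in the zygote, -0.47 ± 0.17 (adjusted p = 0.209). Of the genes of methyl-group supply, which make S-adenosylmethionine and recycle its product, 0 of 16 passed, and their median was -0.01. Tyms, the thymidylate synthase that shares the folate cycle, had 0.41 ± 0.18 (adjusted p = 0.304; 0.24 without wild-type replicate 3), and Mat2b, the regulatory subunit of methionine adenosyltransferase, -0.28 ± 0.13 (adjusted p = 0.316).

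Base excision repair, which completes demethylation after Tdg, had 0 of 17 genes past the threshold and a median of -0.04. Apex2, an apurinic endonuclease, read 4.84, 4.78 and 4.86 on the Tet2-deficient arrays and 4.45, 4.09 and 4.41 on the wild-type arrays, with no overlap (log2 change 0.51 ± 0.13, adjusted p = 0.104, and 0.047 with features above the median level only). Polb, the polymerase that fills the gap, read 5.28, 5.13 and 5.30 against 5.46, 5.65 and 5.73, also with no overlap and in the other direction (-0.37 ± 0.12, adjusted p = 0.187). Apex1, another apurinic endonuclease of the list, had a change opposite to that of Apex2 (-0.20 ± 0.12, limma adjusted p = 0.456), again with no overlap. Of the methyl-CpG readers 0 of 7 passed, and the one with the smallest p, Mbd2, had -0.22 ± 0.14 (adjusted p = 0.473) and -0.12 without wild-type replicate 3. Mbd6 followed at -0.21, which was -0.0067 without Tet2-deficient replicate 1 and -0.37 without Tet2-deficient replicate 3.

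**Figure D4:**
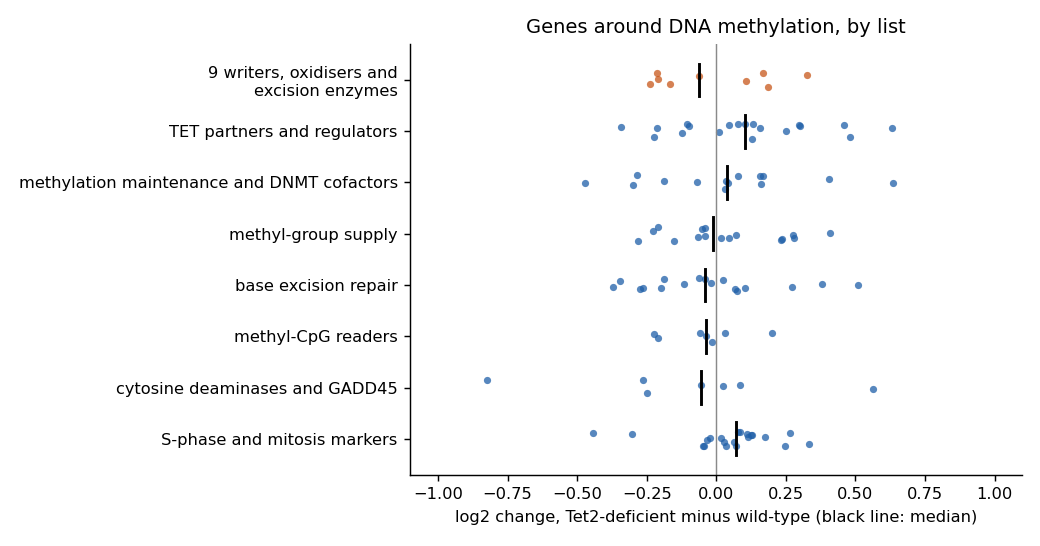
Log2 change (Tet2-deficient minus wild-type) of each measured gene, by list (points), with the list median as a black line; vertical scatter is for display only. All medians lie between -0.06 and 0.10, and the widest values are those of Gadd45g (-0.82) and Hdac1 (0.63).

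Cytosine deaminases and GADD45 genes, stress-response adaptors that have been linked to active demethylation, had 0 of 7 past the threshold, and the smallest p was that of Gadd45a. Gadd45a had log2 levels of 6.85, 6.83 and 6.75 on the Tet2-deficient arrays and 6.24, 6.24 and 6.27 on the wild-type arrays. The groups were far apart against their spread, and the log2 change was 0.56 ± 0.11 (adjusted p = 0.0522), just short of the threshold. Gadd45a passed under 4 of 13 alternatives, with adjusted p from 0.0172 to 0.177 over the 13. Gadd45g had 5.08, 4.65 and 5.11 on the Tet2-deficient arrays and 5.41, 5.66 and 6.24 on the wild-type arrays, with no overlap (log2 change -0.82 ± 0.22, adjusted p = 0.108). It passed under 0 of 13 alternatives (lowest adjusted p = 0.0531). Gadd45b, the remaining GADD45 gene, had a log2 change of -0.26 ± 0.12 (limma adjusted p = 0.320), again with no overlap. Among S-phase and mitosis genes the smallest p was that of the replication factor Gins2 (-0.30 ± 0.13, adjusted p = 0.283), followed by Cdk1, the mitotic kinase (-0.44 ± 0.22, adjusted p = 0.363), both from the limma fit. Without wild-type replicate 1 the change of Cdk1 was -0.69.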

How the data were processed

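Gene expression of 6 cultures (3 labelled Tet2-deficient, 3 wild-type) was measured on Affymetrix whole-transcript arrays. The authors deposited log2 values from RMA (which corrects background, normalizes arrays and summarises probes) with affy 1.36.1, per the submitters' processing notes. Array type, probe sets, genome build and filters: not given in the sources used here. RMA gives all arrays a like distribution, which hides any change shared by all genes. Values ran from 0.345 to 12.7. Each pair of arrays differed in at least 99.66% of features.

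Symbols came from the platform annotation (23185 features with 1 symbol, 2021 without). All 25206 features were fitted with limma 3.58.1 in R 4.3.3 (lmFit, eBayes, two-sided, Benjamini-Hochberg over all features, threshold 0.05, 95% intervals). The fit was also run on simulated data with planted changes larger than those of the 9 genes, which says nothing about changes of their size. Pairs of genes were compared by exact permutation. The members, lists and tests were chosen with earlier results of these data known. Named were the 9 genes; in each pathway list, those past the threshold or else the 2 with the smallest p; the 3 measured genes on each side of Tet2; and the 2 most alike for genes with a range of at least 0.5. Cd14, Itgam, Pdgfrb, Timd4, Hdac2, Nfkbiz, Cul4a, Cul4b, Apex1, Gadd45b, Msln and Krt19 were named outside this rule. RefSeq tables (GRCm38.p6) gave gene order and promoter sequences; 1 older symbol was matched. Alternatives were other scalings, filters, priors, weights, a replicate block, each array left out and other thresholds.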

Additional observations from a re-analysis of the deposited data

How the results depend on the processing

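The count of the 9 genes past the threshold was 0 under every alternative run, other thresholds of 0.1 and 0.25 included. Tet2 kept a positive log2 change under all 13 alternatives (0.21 to 0.46, adjusted p = 0.196 to 0.684 in limma), and the 7 genes other than Tet2 and Mbd4 kept their signs under the 12 or 13 that gave a value. Mbd4 turned to 0.0038 with arrays centred on their medians and 0.0032 with cyclic loess. Tet1, Dnmt3b, Tdg and Mbd4 have no value with features above the median level only. The count of all features past the threshold moved from 240 to 846 with features above the median level only, 814 with a trended and robust prior, 498 with array weights, 791 and 3026 at thresholds of 0.1 and 0.25, and 11 to 155 with 1 array left out, lowest without Tet2-deficient replicate 3. Of the 101 measured genes of the 7 pathway lists, 0 past the threshold became 1 with centred arrays, 4 with features above the median level, 2 with the trended prior and 1 with array weights. Signs also turned for Mir1895 (0.035 with centred arrays, 0.060 with array weights) and, with cyclic loess, for Dnmt1 minus Uhrf1 (-0.014) and Hdac2 (-0.0098). With 1 array left out they turned for Ppa2 (-0.13 to 0.0020), Mir1895 (-0.23 to 0.24), 4930539C22Rik (-0.24 to 0.069), Mon1a (-0.084 to 0.22), Hdac2 (-0.029 to 0.095), Tet2 minus Tet3 (-0.040 to 0.36) and Dnmt1 minus Uhrf1 (-0.038 to 0.20); the cause was not tested. Whether same-numbered arrays of the 2 groups share more than a number is not given in the labels used here. Correlations of their deviations were 0.08, 0.19 and 0.02, and those between differently numbered arrays ran from -0.14 to 0.06. With the replicate block 230 features and 0 of the 9 genes passed, and Tet2 had an adjusted p of 0.297 in limma. Limits are the unknown deleted part and probe position of Tet2 and, for Tdg, Mbd4, Tet1 and Dnmt3b, a signal near or below that of the median feature.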
